A study of Mus musculus with 8 samples.

Results

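ABCG1-deficient mouse macrophages were compared with wild-type macrophages by RNA sequencing of total RNA. The comparison rests on 5 of the 8 libraries of the study, chosen by their labels: 2 from macrophages of genotype ABCG1KO and 3 from macrophages of genotype WT. The other 3 libraries carry the genotype LysM-DKO, which is taken to be the epsin double knockout named in the study's design. They entered the gene filter, the scaling and the estimate of the spread between libraries, and some of their levels are given beside results. All groups were primary macrophages under a normal diet, and none of the labels gives another treatment. The labels do not state the ABCG1 allele, whether the gene was lost in all cells or in a cell type, the tissue, age, sex or strain, or whether RNA of several animals was pooled. Nothing says that the libraries of a group came from separate animals, so p-values measure the spread between these libraries, which may be technical. Levels are given as CPM, each gene's count scaled to the library's total in genes with TMM scaling, which are not corrected for gene length and are compared only within a gene.

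ABCG1 is a membrane transporter of the ATP-binding cassette family that moves cholesterol and related sterols out of macrophages towards high-density lipoprotein. It works beside ABCA1, which loads lipid-poor apolipoprotein, and both genes are targets of the liver X receptors (LXR), nuclear receptors that sense oxysterols. When sterol in the endoplasmic reticulum is high, the transcription factor SREBP2 is retained there and genes of cholesterol synthesis are transcribed less. Macrophages that store cholesterol ester in droplets are called foam cells.

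The libraries held 29567615 (ABCG1KO 1), 38747428 (ABCG1KO 2) and 37462500 to 41166088 (WT) counts in genes. Reads outside annotated genes made up 13.8% and 10.2% of counted reads in the ABCG1KO libraries against 4.27% to 5.88% in WT. Reads aligned to more than 1 place made up 6.93% and 6.74% against 2.83% to 3.00%. Genes with near copies elsewhere in the genome were among those lower in ABCG1KO, and the part of read assignment in this was not tested. Of 98 tested genes for ribosomal proteins and Gapdh, 65 were called lower, with Gapdh at 1500, 1705 and 731 CPM in WT and 4.99 and 2.05 CPM in ABCG1KO. These genes were kept out of the rankings, and genes with at least 5% of their sequence shared with another locus are named as uncertain. Y-linked Ddx3y stood at 94.8 and 92.6 CPM in ABCG1KO and at 0 to 0.0276 CPM in WT, while Xist, which silences the inactive X chromosome, stood at 0 in both ABCG1KO libraries and at 79.1, 193 and 200.3 CPM in WT. Sex and ABCG1 genotype therefore cannot be told apart in this comparison. The library LysM-DKO 1 also held Ddx3y, at 81.6 CPM, with 0.0485 CPM of Xist, and its levels are given beside some results. LysM-DKO 2 and 3 held 0.0488 and 0 CPM of Ddx3y.

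Abcg1 (chr17:31057675-31117988, plus strand, GRCm38) is the protein-coding gene that the knockout targets. WT 1, 2 and 3 held 405, 404 and 345 CPM of Abcg1, and ABCG1KO 1 and 2 held 60.4 and 73.4 CPM. Both knockout libraries lay far below every WT library, and the mean was 17.4% of the WT mean. This is a fall by 2.52 on the log2 scale (SE 0.372, edgeR adjusted p = 0.00426, 2 against 3 libraries). Reads remained over the gene in both knockout libraries, and a count per gene does not show which exons they came from.

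Across 13821 tested genes, 2199 were called at a Benjamini-Hochberg adjusted p under 0.05 in edgeR's quasi-likelihood test, 15.9% of those tested. Of these, 990 (7.16%) were higher and 1209 (8.75%) lower in ABCG1KO, and without ribosomal protein genes and Gapdh 986 and 1144. With raw library size in place of TMM scaling, the median of all genes moved from 0.01 to 0.25 on the log2 scale, and 2055 were higher and 856 lower, a share of 70.6% higher against 45%. All 990 higher calls lay above every WT library in both knockout libraries, and 1208 of the 1209 lower calls lay below. Among all tested genes, 23.9% lay above and 24.2% below every WT library in both. Counts in the lists below are to be read beside the shares of all tested genes given here. At least 5% of sequence was shared with other loci for 417 of the lower calls and for 76 of the higher calls. The matching number over all tested genes is not given here, so neither count is read as an excess or a deficit. With 1 library left out in turn (WT 1, WT 2, WT 3, ABCG1KO 1, ABCG1KO 2), 1369, 1173, 1319, 827 and 1823 genes were called. Calls described below as holding in every such fit were called with any 1 of these 5 libraries left out. Among called genes of the lists described below, calls were lost most often without ABCG1KO 1.

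The 2 knockout libraries were also set against the WT mean one by one. Across tested genes, their differences from the WT mean correlated at Pearson r = 0.762, which is a description across genes that share the WT mean. Among genes called higher, the difference was larger in ABCG1KO 1 for 732 of 990, with medians of 1.26 and 1.00 (log2, after adding 0.5 CPM). Among genes called lower, it was larger in ABCG1KO 1 for 644 of 1209, with medians of -1.32 and -1.21. The excess in ABCG1KO 1 was thus mainly on the side of the rises.

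**Figure D1:**
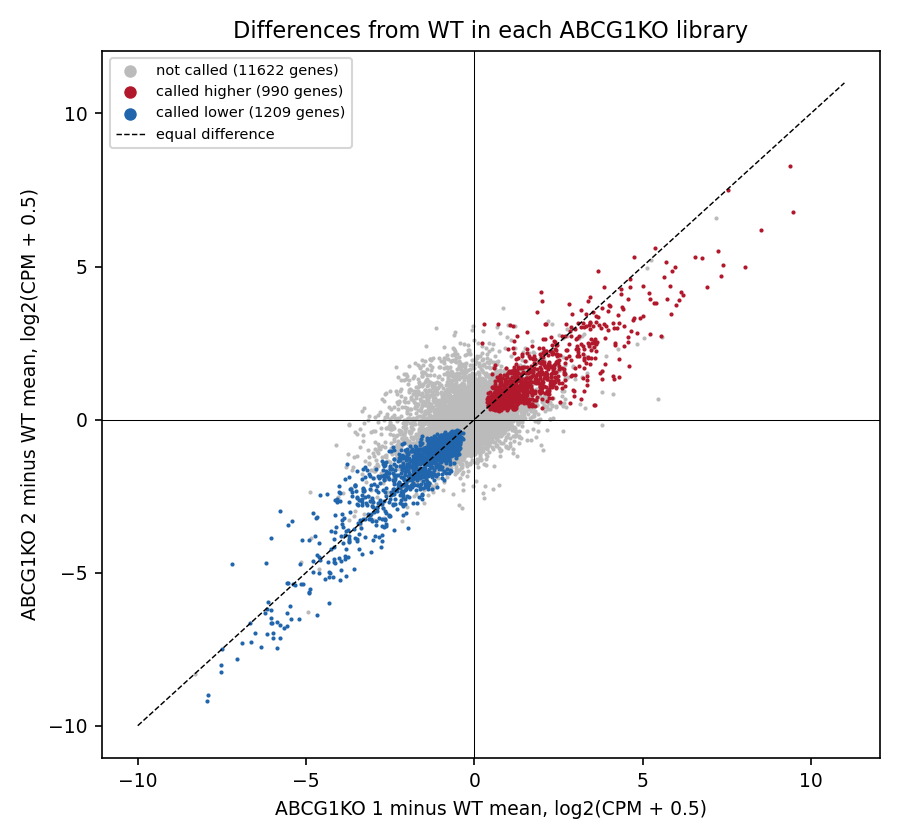
Difference from the mean of the 3 WT libraries in ABCG1KO 1 (horizontal axis) and ABCG1KO 2 (vertical axis) for 13821 tested genes, as log2 of CPM with 0.5 CPM added. Called genes are red (990 higher) and blue (1209 lower), and red points far from 0 lie mostly below the dashed line of equal difference, towards larger values in ABCG1KO 1.

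The largest rises included the scavenger receptor Marco, the acute-phase genes Hp and Saa3 and the lipoxygenase Alox15. Marco, a scavenger receptor with a collagenous stem, stood at 1.35, 3.04 and 0.0259 CPM in WT and at 1308 and 620.4 CPM in ABCG1KO 1 and 2. Alox15, which oxygenates arachidonic and linoleic acid, stood at 0.909, 1.22 and 0.0776 CPM in WT and at 884.5 and 135 CPM in ABCG1KO. Neither gene's groups came near each other, although the knockout libraries differed several-fold for Alox15. The log2 fold changes were 9.36 (SE 1.93, edgeR adjusted p = 0.0166) for Marco and 9.45 (SE 1.55, edgeR adjusted p = 0.00662) for Alox15, and that of Marco was lost without WT 1. Hp, which encodes haptoglobin, a haemoglobin-binding acute-phase protein, rose from 2.67, 1.91 and 1.04 CPM to 867 and 175 CPM (log2 fold change 8.13, SE 0.838, edgeR adjusted p = 0.000721). LysM-DKO 1 held 0 CPM of Marco and Alox15 and 1.33 CPM of Hp.

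Apart from Saa3, the other genes with the largest rises had low levels in WT. Olr1, the lectin-like receptor for oxidised LDL, stood at 0.235 to 0.856 CPM in WT and at 177 and 34.4 CPM in ABCG1KO. Prg4, the lubricant proteoglycan lubricin, stood at 0.414 to 2.26 CPM against 499.8 and 60.7 CPM, and Adgre4, an adhesion receptor of the F4/80 family, at 0.235 to 0.58 CPM against 145 and 22.8 CPM. In all 3 the level in ABCG1KO 1 was several-fold that in ABCG1KO 2, and both were far above WT. Apoc1, an apolipoprotein of the Apoe gene cluster, differed in that ABCG1KO 2 was the higher library, with 15.2 and 23.2 CPM against 0.0293 to 0.129 CPM in WT. Saa3, an acute-phase apolipoprotein made by macrophages, was measured at 64.7, 124 and 6.44 CPM in WT and at 9953 and 2971 CPM in ABCG1KO. Cfb, complement factor B of the alternative pathway, stood at 2.12 to 6.65 CPM against 470.3 and 166 CPM. Fpr1, a receptor for formyl peptides, stood at 0.0259 to 0.304 CPM against 39.0 and 19.7 CPM, and Gpr84, a receptor for medium-chain fatty acids, at 0.235 to 0.525 CPM against 66.9 and 14.8 CPM. The remaining 4 were Retnla and Ccl24, both known as targets of interleukin 4 signalling, Mlxipl, the glucose-responsive transcription factor ChREBP, and Ddx3y. The calls of Hp, Alox15, Retnla, Fpr1, Apoc1, Adgre4, Prg4, Olr1, Gpr84 and Cfb held in every fit with a library left out, while those of Mlxipl and Ccl24 were lost without WT 1, WT 3 or ABCG1KO 1, that of Saa3 without WT 1 or ABCG1KO 1, and that of Ddx3y without any 1 library.

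The largest falls were in genes of several unrelated functions. Eya1, a transcriptional cofactor and phosphatase, had 12.7, 7.23 and 14.6 CPM in WT and no count in either knockout library, which is at least 140-fold lower against 3 counts per library. Mfge8, a secreted bridge between apoptotic cells and integrins, stood at 2295, 3340 and 3701 CPM in WT and at 41.9 and 120 CPM in ABCG1KO. Mgll, which cleaves monoacylglycerol, stood at 363, 389 and 371.5 CPM against 2.07 and 13.7 CPM. The levels of Mfge8 and Mgll were lower in ABCG1KO 1 than in ABCG1KO 2, and both were below WT by more than an order of magnitude. Log2 fold changes were -5.27 (SE 0.681, edgeR adjusted p = 0.00229) for Mfge8 and -5.56 (SE 0.872, edgeR adjusted p = 0.00569) for Mgll. LysM-DKO 1, 2 and 3 held 771, 1098 and 2201 CPM of Mfge8 and 492, 203 and 185 CPM of Mgll.

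Dio2, which converts thyroxine to its active form, stood at 184, 205 and 121 CPM in WT and at 2.10 and 1.20 CPM in ABCG1KO. Mcoln3, an endolysosomal cation channel, stood at 16.95 to 41.7 CPM against 0.220 and 0.236 CPM, and Cdkn1c, an inhibitor of cyclin-dependent kinases, at 297 to 460.4 CPM against 13.2 and 14.9 CPM. For these 3 genes the knockout libraries were close to each other and far from WT. Cd200, an inhibitory ligand for myeloid cells, stood at 219 to 303 CPM against 6.99 and 16.6 CPM, and Npy, neuropeptide Y, at 88.4 to 115 CPM against 2.92 and 6.32 CPM. Gdf3, a ligand of the TGF-beta family, stood at 53.9 to 174 CPM against 2.60 and 2.17 CPM. The other 6 were Prss46, Npas2, Lims2, Lat, Ube2s and Adra1a, with log2 fold changes from -6.35 (Prss46) to -4.50 (Adra1a). The LysM-DKO libraries held 84.6 to 117.8 CPM of Cdkn1c, below WT, and 148.9 to 216.7 CPM of Dio2. Lat stood at 2.58 to 12.4 CPM in LysM-DKO against 41.1 to 56.7 CPM in WT. Adra1a stood at 29.06 to 87.76 CPM in LysM-DKO against 13.72 to 28.61 CPM in WT. Adra1a lost its call without WT 2 or WT 3 and Npy without ABCG1KO 1. The other 13 falls held in every fit with a library left out.

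**Figure D2:**
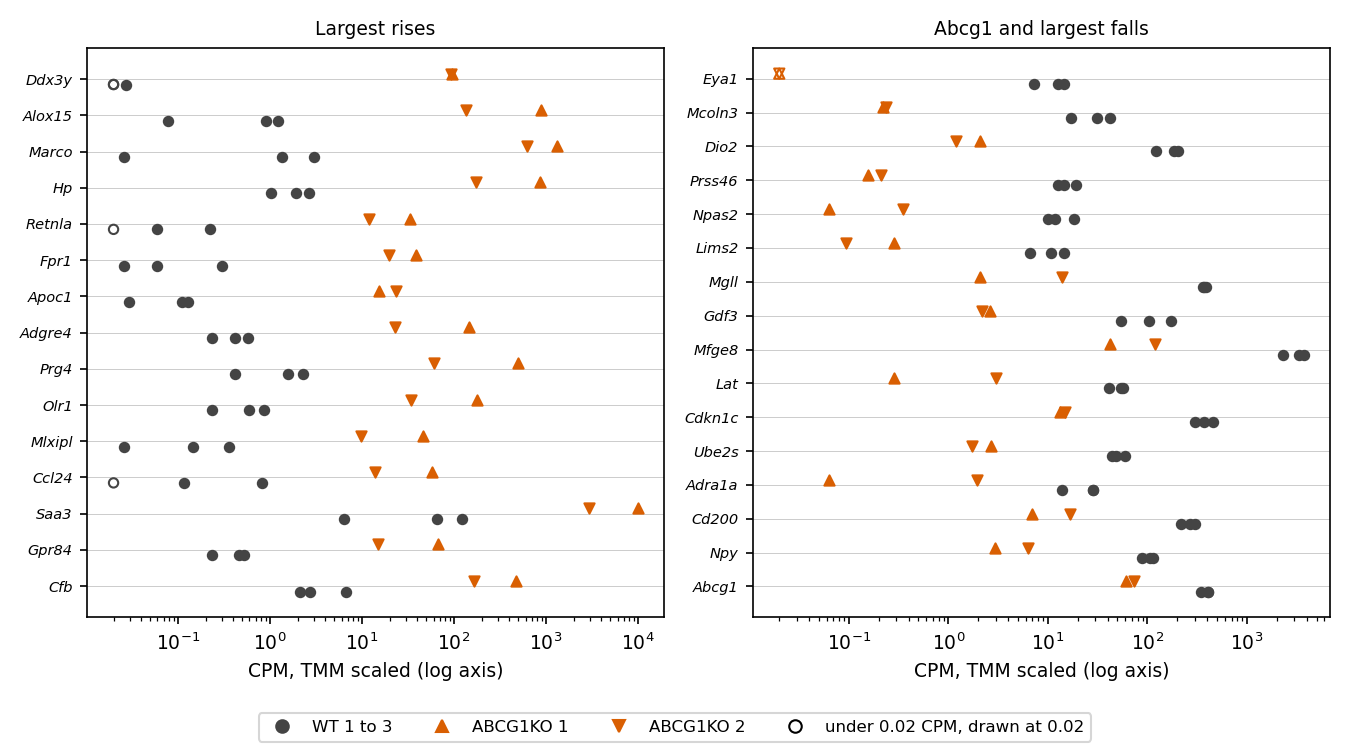
CPM of the 15 largest rises (left) and of the 15 largest falls with Abcg1 (right) in each WT library (grey circles) and in ABCG1KO 1 and 2 (orange triangles), on log axes. In every gene shown, both knockout libraries lie outside the range of the 3 WT libraries, which was a condition for choosing these rises and falls. ABCG1KO 1 and 2 stand at 1308 and 620.4 CPM of Marco and at 41.9 and 120 CPM of Mfge8.

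Among 15 tested genes of cholesterol export and LXR targets, 4 rose and 2 fell, with a median log2 fold change of 0.32 against 0.01 over all tested genes. The falls include Abcg1 itself, the targeted gene. Abca1, the partner exporter, stood at 195, 473 and 228 CPM in WT and at 604 and 792 CPM in ABCG1KO, above every WT library, and was not called (log2 fold change 1.23, SE 0.468, edgeR adjusted p = 0.114). Mylip, a ubiquitin ligase induced by LXR, rose from 35.6, 33.9 and 28.0 CPM to 101 and 139.8 CPM (log2 fold change 1.89, SE 0.288, edgeR adjusted p = 0.00488). Rxra, the dimer partner of LXR, rose from 151, 166 and 181 CPM to 304 and 339.6 CPM. Pltp, the phospholipid transfer protein, was called higher with a log2 fold change of 1.40, and lost its call with any 1 library left out. Apoc1 was the remaining rise. Scarb1, the receptor for high-density lipoprotein, fell from 123, 105 and 105 CPM to 63.0 and 56.4 CPM, a call lost without either knockout library. The LXR genes Nr1h3 (log2 fold change -0.58) and Nr1h2 (-0.37), Srebf1 (0.17) and Apoe (0.78) were not called. Apoc1, Mylip and Rxra held in every fit with a library left out.

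The pathway of sterol synthesis was lower as a group. All 26 genes of sterol synthesis and SREBP2 targets were tested: 14 fell (53.8%), none rose, and 22 lay below every WT library in both knockout libraries. Over all tested genes, 8.75% were called lower and 24.2% lay below every WT library in both. The median log2 fold change was -1.13 against 0.01 over all tested genes, and it was -1.03 in ABCG1KO 1 and -1.05 in ABCG1KO 2. Some of these genes are shown first by the bases before their start sites, since the promoters of this pathway are known to bind SREBP2 with the factor NF-Y. The window is the 250 bases before the annotated start (RefSeq, GRCm38.p6), and 18 of the 26 genes had a window. The sequence of Lss is printed without the bases next to its start that lie in an annotated exon. Capitals mark CCAAT, the letters of the NF-Y box, on either strand (ATTGG on the other), and TCACNCCAC, letters of a sterol regulatory element, on either strand, and the marked stretches do not overlap. Shown are the called genes with under 5% shared sequence whose window holds CCAAT and has at most a short stretch of exon to remove: Hmgcs1 (chr13:119690101-119690350, plus strand), which makes HMG-CoA, Lss (chr10:76531355-76531587, plus strand), which closes the lanosterol ring, and Sc5d (chr9:42264301-42264550, minus strand), a late desaturase.
Hmgcs1: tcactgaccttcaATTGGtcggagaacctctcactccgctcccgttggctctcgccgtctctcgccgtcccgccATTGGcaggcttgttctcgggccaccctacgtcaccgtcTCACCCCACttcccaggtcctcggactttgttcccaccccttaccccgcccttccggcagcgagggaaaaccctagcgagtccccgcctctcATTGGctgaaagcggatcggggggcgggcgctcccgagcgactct
Lss: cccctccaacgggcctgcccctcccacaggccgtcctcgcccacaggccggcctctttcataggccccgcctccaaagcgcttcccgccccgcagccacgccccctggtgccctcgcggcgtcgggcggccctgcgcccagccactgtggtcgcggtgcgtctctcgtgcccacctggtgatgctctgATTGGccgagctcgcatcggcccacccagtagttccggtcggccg
Sc5d: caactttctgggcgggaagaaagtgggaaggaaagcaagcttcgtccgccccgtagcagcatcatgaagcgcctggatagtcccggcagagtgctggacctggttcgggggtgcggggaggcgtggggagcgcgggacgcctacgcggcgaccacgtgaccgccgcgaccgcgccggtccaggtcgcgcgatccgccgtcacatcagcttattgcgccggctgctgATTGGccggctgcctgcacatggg
CCAAT was found before 17 of the 18 genes (94.4%), against 40.2% of the 10427 tested genes with a window. These counts use whole windows, exon bases included. The windows of Idi1 and Tm7sf2 lie wholly in annotated exons, as does the only window of Dhcr7 that holds CCAAT. In the window of Msmo1, 214 of the 250 bases lie in annotated exons. TCACNCCAC was found before 1 of the 18 (Hmgcs1), against 1.23%. These matches describe letters and are not binding sites. The share with CCAAT describes a list of known pathway genes and is not a result of the knockout. CCAAT was also found before every member with a window that was not called, among them Insig1, Mvk and Ebp. The window of Acat2, which was called lower, held none.

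Along the pathway, Hmgcs1 stood at 213, 169 and 192 CPM in WT and at 88.1 and 95.2 CPM in ABCG1KO (log2 fold change -1.06, SE 0.232, edgeR adjusted p = 0.01995). Sqle, the squalene epoxidase, stood at 105, 80.4 and 68.7 CPM against 23.7 and 26.3 CPM. In both genes the knockout libraries lay close to each other and below all of WT. Among the steps after squalene, Lss fell from 41.8, 30.5 and 28.8 CPM to 8.47 and 13.4 CPM (log2 fold change -1.62, SE 0.261, edgeR adjusted p = 0.00618). Msmo1, the methylsterol oxidase, fell from 210.5, 137 and 136 CPM to 44.4 and 43.9 CPM (log2 fold change -1.87, SE 0.265, edgeR adjusted p = 0.00364). Dhcr7, which makes cholesterol from its last precursor, fell from 80.2, 57.0 and 68.8 CPM to 22.0 and 31.4 CPM (log2 fold change -1.36, SE 0.222, edgeR adjusted p = 0.00645). Tm7sf2, Nsdhl and Sc5d also fell, with log2 fold changes from -1.72 to -1.24.

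Srebf2, which encodes SREBP2, stood at 197, 166 and 179.9 CPM against 128 and 121.5 CPM and was not called (edgeR adjusted p = 0.0546). Insig1, an SREBP2 target that holds the SREBP complex in the endoplasmic reticulum, stood at 98.7 to 136 CPM in WT and at 112 and 108 CPM in ABCG1KO, inside the WT range. The steepest falls of the list, Fdps (-3.80) and Idi1 (-2.91), and those of Fdft1 and Acat2 belong to genes with 9.38% to 39.1% of their sequence shared with other loci and are uncertain. LysM-DKO 1 stood at 113 CPM of Msmo1 and 42.9 CPM of Sqle, between the WT and ABCG1KO libraries, and at 27.6 CPM of Lss. LysM-DKO 2 and 3 stood at 75.05 and 112.5 CPM of Msmo1, 41.97 and 89.02 CPM of Sqle, and 25.4 and 31.44 CPM of Lss. The 14 calls became 8, 9, 12, 5 and 7 with each library left out in the order given above. Those of Idi1, Fdps, Lss, Msmo1 and Dhcr7 held in every such fit.

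Of 14 genes of cholesterol trafficking and esterification, 3 fell and 1 rose, with a median log2 fold change of -0.46. Npc2, which hands lysosomal cholesterol to NPC1, fell from 2136, 2108 and 1883 CPM to 1239 and 1111 CPM (log2 fold change -0.80, SE 0.167, edgeR adjusted p = 0.0179). Soat1, the acyltransferase that esterifies cholesterol for storage, stood at 741, 714 and 872 CPM in WT and at 319 and 509 CPM in ABCG1KO (log2 fold change -0.91, SE 0.230, edgeR adjusted p = 0.0344). Stard3 fell and Gramd1a rose, both sterol carriers at membrane contacts. Npc1 itself (log2 fold change -0.13) and Lipa, the lysosomal lipase (-0.79), were not called. None of these 4 calls held in every fit with a library left out. The 3 falls became 1, 0, 1, 0 and 2, and the 1 rise was called only without ABCG1KO 2.

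Genes that mark foam cells and lipid-associated macrophages were lower as a group. Of 18 tested, 12 fell (66.7%) and none rose, and 17 lay below every WT library in both knockout libraries. Over all tested genes, 8.75% were called lower and 24.2% lay below in this way. The median log2 fold change of the list was -1.43 (-1.84 in ABCG1KO 1 and -1.23 in ABCG1KO 2). Gpnmb, a glycoprotein of lipid-laden macrophages, stood at 27960, 24110 and 32290 CPM in WT and at 1607 and 4561 CPM in ABCG1KO (log2 fold change -3.19, SE 0.477, edgeR adjusted p = 0.00454). Spp1, osteopontin, stood at 5236, 4903 and 1799 CPM against 208 and 316 CPM (log2 fold change -3.93, SE 0.562, edgeR adjusted p = 0.00376). In both, ABCG1KO 1 was lowest and no library overlapped. Lgals3, galectin-3, fell from 8043, 6288 and 6044 CPM to 1364 and 1929 CPM, and Atp6v0d2, a subunit of the proton pump, from 1500, 1351 and 1748 CPM to 72.8 and 286 CPM. Syngr1, a vesicle membrane protein, fell from 209, 155 and 236 CPM to 46.2 and 53.9 CPM. Plin2, the coat protein of lipid droplets, stood at 1984, 1966 and 1848 CPM against 715 and 1035 CPM. LysM-DKO 1 held 6277 CPM of Lgals3, within the WT range, and lay between the WT and ABCG1KO libraries for Gpnmb (23220 CPM), Fabp5 (952 CPM), Cd9 (545 CPM), Itgax (647 CPM) and Lpl (4345 CPM). LysM-DKO 2 and 3 held 1967 and 5785 CPM of Lpl.

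Fabp4, Fabp5, Cd9, Cd63, Itgax and Lpl made up the other 6 falls of the list. The fatty acid carriers Fabp4 and Fabp5 had log2 fold changes of -1.19 and -1.84, the tetraspanins Cd9 and Cd63 of -1.21 and -2.19, the integrin chain Itgax (CD11c) of -3.17 and Lpl, lipoprotein lipase, of -1.59. Fabp5, Cd9, Cd63 and Itgax share 5.48% to 11.1% of their sequence with other loci, which makes them uncertain. Trem2, the lipid receptor of these cells, stood at 1298, 805 and 1317 CPM in WT and at 559 and 885 CPM in ABCG1KO and was not called (edgeR adjusted p = 0.148). The 12 calls became 9, 9, 9, 8 and 10 with each library left out, and 8 of them held in every such fit. Those lost at least once were Fabp4, Cd9, Plin2 and Lpl.

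**Figure D3:**
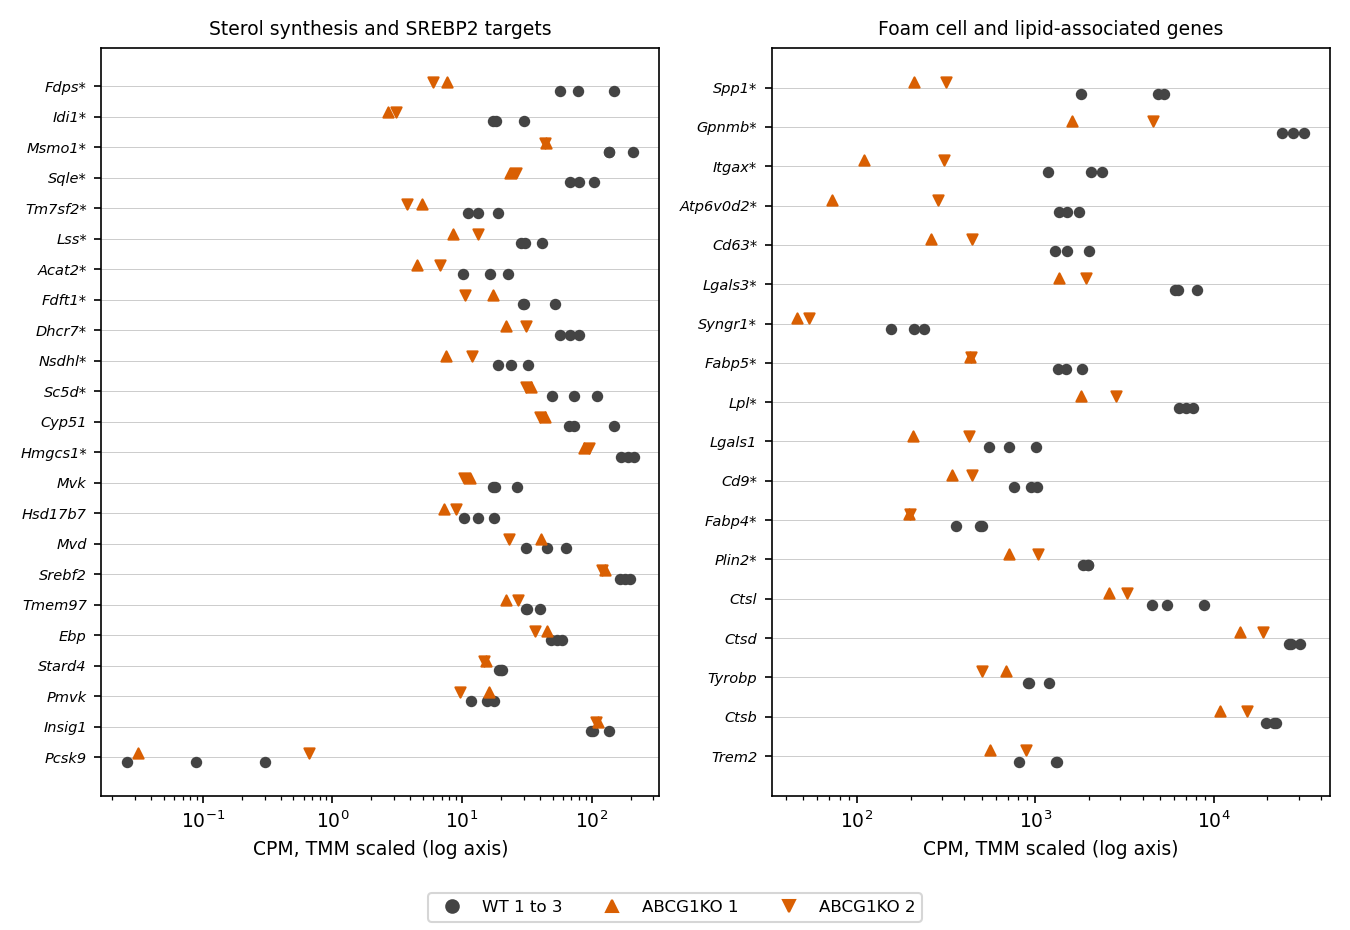
CPM in each library, on log axes, of 23 of the 26 genes of sterol synthesis and SREBP2 targets (left) and of 18 foam cell and lipid-associated genes (right), ordered by log2 fold change, with called genes starred. Both ABCG1KO libraries (orange triangles) lie left of all 3 WT libraries (grey circles) in 19 of the 23 and in 17 of 18 genes.

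Lysosomal genes were lower with smaller changes. Of 32 genes for hydrolases and the proton pump, 11 fell (34.4%) and none rose, and 23 lay below every WT library in both knockout libraries. Over all tested genes, 8.75% were called lower and 24.2% lay below in this way. The median log2 fold change of the list was -0.63. Ctsk, the collagen-degrading cathepsin K, stood at 309, 167 and 468.5 CPM in WT and at 20.04 and 29.4 CPM in ABCG1KO (log2 fold change -3.67, SE 0.509, edgeR adjusted p = 0.00329). The other 10 falls were smaller, among them Atp6v0a1 of the proton pump (-1.19) and Ctsa, cathepsin A (-0.72). Tpp1, a peptidase, fell from 647, 619 and 535 CPM to 287 and 361 CPM. Gla and Smpd1, hydrolases of glycolipid and of sphingomyelin, had log2 fold changes of -0.96 and -0.78. Tfeb, which activates lysosomal genes, stood at 89.8 to 125 CPM in WT and at 91.1 and 83.9 CPM in ABCG1KO and was not called (edgeR adjusted p = 0.378). The E-box letters CACGTG were found before 9 of the 24 genes of this list with a window (37.5%) against 9.76% of tested genes. Their share was 22.2% in the sterol synthesis list and 18.2% in the foam cell list. Exon bases are included in these windows, and the matches describe letters and are not binding sites. The 11 calls became 2, 3, 7, 1 and 7 with each library left out and 5 with raw library size, and that of Ctsk held in every such fit.

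Receptors that take up lipoproteins moved both ways. Of 17 tested, 3 rose (Marco, Olr1 and Cd163) and 4 fell, among them Scarb1, Cd68 and Lpl. In this list 41.2% were called, against 15.9% of all tested genes. Cd163, the receptor for haptoglobin with haemoglobin, stood at 1.82, 5.63 and 1.76 CPM in WT and at 55.7 and 26.4 CPM in ABCG1KO (log2 fold change 3.74, SE 0.915, edgeR adjusted p = 0.0299). Cd68, a lysosomal glycoprotein of macrophages, fell from 2662, 2125 and 2343 CPM to 917 and 1369 CPM (log2 fold change -1.06, SE 0.229, edgeR adjusted p = 0.0196). Cd36 stood at 3714 to 6106 CPM against 1502 and 2982 CPM, below WT and not called (edgeR adjusted p = 0.0776), and Msr1 at 319 to 595 CPM against 781 and 518 CPM, with overlap. Of these calls, that of Olr1 held in every fit with a library left out. The 4 falls became 1, 2, 3, 0 and 4 and the 3 rises 1, 3, 2, 2 and 3.

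Genes of fatty acid metabolism moved both ways. In synthesis and desaturation, 2 of 21 rose (Mlxipl and the elongase Elovl5) and 1 fell (the desaturase Fads1), with a median of -0.04, and 14.3% called against 15.9% of all tested genes. Fasn, the fatty acid synthase, stood at 83.5, 63.9 and 54.5 CPM in WT and at 33.0 and 70.6 CPM in ABCG1KO, which overlap. In oxidation, 2 of 21 rose (Ppard and Ppargc1b, regulators of oxidation) and 4 fell, with 28.6% called and a median of -0.03. Each of these 2 rises was lost with any 1 WT or ABCG1KO library left out. Ppargc1a, another regulator of oxidation outside the list, was called lower. It had 1 count over both ABCG1KO libraries, at least 17.8-fold lower against 3 counts per library. Acadl, the long-chain dehydrogenase, stood at 163, 129.8 and 114 CPM against 75.6 and 75.5 CPM, and Hadhb, of the trifunctional protein, was the steepest fall (-2.98) but shares 19.7% of its sequence. Apart from Hadhb, the calls of both lists were lost with at least 1 library left out.

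Receptors that sense microbes split into higher and lower sets. Of 22 pattern recognition receptors and adaptors, 7 rose and 4 fell, 50% called against 15.9% of all tested genes. Tlr2, the receptor for bacterial lipopeptides, rose from 31.7, 27.0 and 31.8 CPM to 534 and 271 CPM (log2 fold change 3.74, SE 0.358, edgeR adjusted p = 0.000464). Clec4e (Mincle), a receptor for mycobacterial glycolipid, rose from 12.4, 9.86 and 5.12 CPM to 392.5 and 135 CPM, and Clec4n (Dectin-2), a receptor for fungal mannan, from 10.3, 24.2 and 6.44 CPM to 161 and 117 CPM. In each, both knockout libraries were well above WT, and LysM-DKO 1 stood at 42.7 CPM of Tlr2. Cd14, the coreceptor for lipopolysaccharide, rose from 161, 164 and 91.1 CPM to 700.1 and 314.5 CPM. Clec4d, Fpr1 and Fpr2 were the other rises, and Fpr2 shares 28.5% of its sequence. Tlr4, the signalling receptor for lipopolysaccharide, fell from 67.0, 106 and 60.3 CPM to 31.0 and 37.4 CPM (log2 fold change -1.19, SE 0.307, edgeR adjusted p = 0.0356). Clec7a (Dectin-1), the receptor for fungal glucan, fell from 1341, 1477 and 1349 CPM to 631 and 471.5 CPM, and Ticam1, the adaptor of Tlr3 and Tlr4, from 49.2, 55.2 and 42.6 CPM to 24.8 and 24.4 CPM. Tlr3 was the fourth fall. The 7 rises became 5, 6, 5, 2 and 8 and the 4 falls 5, 2, 3, 1 and 1 with each library left out, and the calls of Tlr2 and Fpr1 held in every such fit.

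Immediate early genes, which are transcribed within minutes of a stimulus, were higher mainly in ABCG1KO 1. Of 27 such genes and feedback genes of MAP kinase signalling, 8 rose and 1 fell, with a median log2 fold change of 1.29 in the fit, 1.59 in ABCG1KO 1 and 0.53 in ABCG1KO 2. Nr4a1, an orphan nuclear receptor, rose from 1.17, 0.994 and 1.06 CPM to 47.7 and 15.2 CPM, and Fosb from 0.147 to 0.442 CPM in WT to 10.3 and 5.76 CPM. Junb stood at 160.1, 159 and 223 CPM against 731 and 237 CPM, so that its ABCG1KO 2 level was close to the highest WT library. Fos, which was not called, stood at 27.6 to 40.01 CPM against 174 and 46.7 CPM. Spry2, an inhibitor of growth factor signalling, fell from 12.7 to 16.7 CPM in WT to 3.42 and 6.42 CPM. The 8 rises became 3, 3, 2, 0 and 13 with each library left out, so that none was called without ABCG1KO 1.

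**Figure D4:**
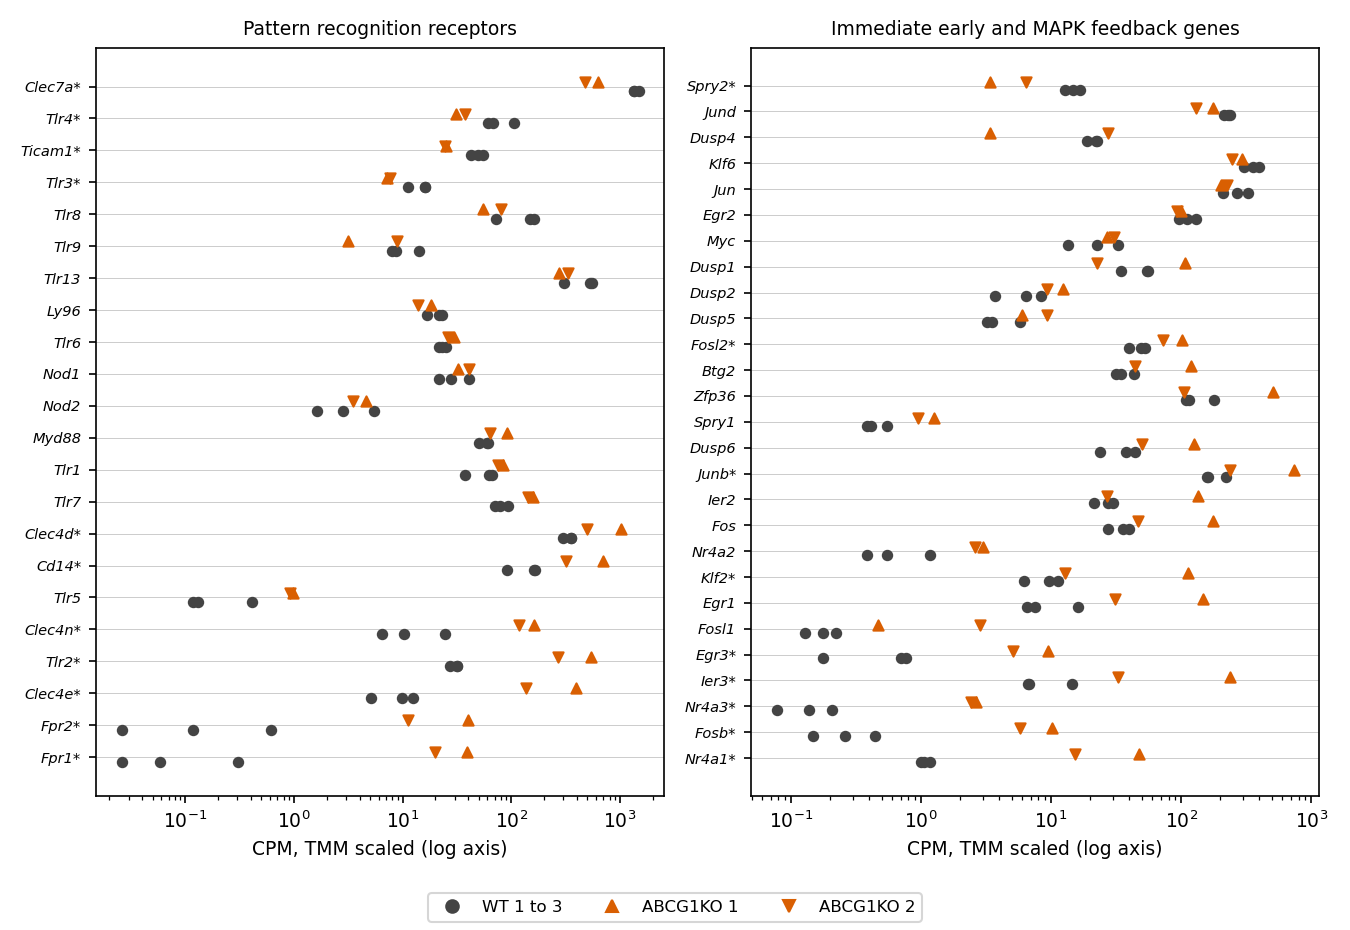
CPM in each library, on log axes, of 22 pattern recognition receptors and adaptors (left) and 27 immediate early and feedback genes (right), ordered by log2 fold change, with called genes starred. Tlr2 in both ABCG1KO libraries (534 and 271 CPM) lies far right of WT, while for Junb the ABCG1KO 2 triangle (237 CPM) lies next to the highest WT circle (223 CPM).

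Cytokine and chemokine genes called in the fit of all libraries were higher. Of 21 inflammatory cytokines and effectors 8 rose and none fell, with a median log2 fold change of 1.41. Tnf rose from 5.599, 7.40 and 7.69 CPM to 46.9 and 20.1 CPM (log2 fold change 2.28, SE 0.492, edgeR adjusted p = 0.0193). The feedback inhibitors of NF-kappaB and cytokine signalling rose with it: Nfkbia stood at 42.9, 39.8 and 50.7 CPM in WT and at 258 and 103 CPM in ABCG1KO. Socs3 stood at 4.06 to 12.5 CPM against 103 and 44.7 CPM. Nlrp3, an inflammasome sensor, stood at 23.3 to 28.5 CPM against 84.9 and 53.5 CPM. The neutrophil chemoattractants Cxcl1 and Cxcl2 rose to 22.2 and 7.05 CPM and to 72.1 and 9.81 CPM, from at most 2.26 CPM in WT, and Cxcl2 shares 5.84% of its sequence. Il1b stood at 0.0293 to 1.38 CPM against 13.2 and 5.59 CPM and was not called (edgeR adjusted p = 0.0514), and the monocyte chemoattractant Ccl2 at 4.58 to 36.0 CPM against 18.5 and 18.3 CPM, inside the WT range. The 8 rises became 5, 5, 4, 2 and 8, with 2 falls called without WT 3, and those of Nfkbia and Cxcl3 held in every fit with a library left out.

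Of 29 chemokine receptors and ligands 8 rose and none fell, 27.6% called against 15.9% of all tested genes. Of these rises, 3 (Cxcl1, Cxcl2 and Cxcl3) stand in both lists. Ccr2, the receptor that brings monocytes from bone marrow, rose from 3.52, 5.47 and 1.29 CPM to 127 and 40.2 CPM (log2 fold change 4.61, SE 0.644, edgeR adjusted p = 0.00338). Cxcr4 rose from 82.1, 61.4 and 107 CPM to 279 and 340.2 CPM, with ABCG1KO 2 the higher library. Cx3cr1, the receptor for fractalkine, stood at 4.40, 16.9 and 3.75 CPM against 95.5 and 79.8 CPM. The 8 rises became 3, 6, 4, 4 and 6, with 2 falls called without WT 3, and those of Ccr2, Ackr3 and Cxcl3 held in every fit with a library left out.

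Acute-phase and granule proteins were higher where called, with a large gap between the knockout libraries. Of 13 tested, 5 rose (Hp, Saa3, Slpi, Pglyrp1 and Cd177, which shares 5.51% of its sequence) and none fell, and the median log2 fold change was 4.80 in the fit, 4.86 in ABCG1KO 1 and 0.79 in ABCG1KO 2. Slpi, an inhibitor of neutrophil elastase, stood at 8.002, 7.37 and 1.37 CPM in WT and at 741 and 123 CPM in ABCG1KO. Of the 14 genes in a list of neutrophil markers, S100a9, Retnlg, Mpo, Elane, Camp and Ngp did not exceed 0.236 CPM in any WT or ABCG1KO library. Of the 6 members tested, 2 lay above every WT library in both knockout libraries and 4 overlapped with WT. The list had 16.7% called against 15.9% of all tested genes, of which 23.9% lay above every WT library in both. Summed over the neutrophil list, levels were 151 to 263 CPM in WT and 423 and 305 CPM in ABCG1KO, with 1 of 6 tested genes, Csf3r, called higher, a gene with 10.7% shared sequence. The part of neutrophils in these rises was not tested. The 5 calls became 4, 5, 4, 2 and 6 with each library left out, and the median was 2.69 without ABCG1KO 1.

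Enzymes of lipid mediators from arachidonic acid also changed. Of 16 tested, 6 rose and 2 fell, with a median log2 fold change of 1.19. Alox5, which starts leukotriene synthesis, rose from 0.879, 1.38 and 0.466 CPM to 69.7 and 35.4 CPM (log2 fold change 5.85, SE 0.930, edgeR adjusted p = 0.00595). Its partner Alox5ap rose from 208, 159.9 and 135 CPM to 659 and 338 CPM, and Ltc4s, which makes leukotriene C4, from 2.05 to 3.15 CPM in WT to 42.0 and 8.59 CPM. Ptges, which makes prostaglandin E2, rose from 6.004 to 12.8 CPM in WT to 75.6 and 27.4 CPM, and Hpgd, which degrades prostaglandins, from 1.19 to 2.76 CPM to 18.9 and 19.98 CPM. Hpgds, of prostaglandin D2 synthesis, and Ephx2, an epoxide hydrolase, fell, with log2 fold changes of -1.14 and -3.79. Ptgs1 and Ptgs2, the cyclooxygenases, were not called. The 6 rises became 4, 3, 3, 2 and 5, and those of Alox15 and Alox5 held in every fit with a library left out.

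In the complement list, 3 of 20 rose and 4 fell, 35% called against 15.9% of all tested genes. C1qa rose from 364, 514 and 269 CPM to 1691 and 1809 CPM, while its partner chains C1qb (log2 fold change 0.37) and C1qc (0.93) were not called. Cfb and Cfp, which drive the alternative pathway, rose, whereas Serping1, the inhibitor of C1, fell from 6.16 to 14.9 CPM in WT to 1.88 and 1.51 CPM. Cd59a, which blocks the membrane attack complex, fell from 9.41 to 14.4 CPM to 3.98 and 2.67 CPM. The other falls, C1s1 and Itgax, share at least 5% of their sequence and are uncertain. C1qa, Cfb, Cd59a and Itgax held in every fit with a library left out.

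Genes for the clearance of apoptotic cells moved both ways, with 5 of 20 higher and 2 lower, 35% called against 15.9% of all tested genes. Beside the fall of Mfge8, its integrin receptor chain Itgb3 fell from 47.6, 24.1 and 64.3 CPM to 3.58 and 6.32 CPM (log2 fold change -3.19, SE 0.545, edgeR adjusted p = 0.00794). Thbs1, thrombospondin-1, rose from 127, 264 and 208 CPM to 2314 and 2285 CPM (log2 fold change 3.53, SE 0.503, edgeR adjusted p = 0.00370). Axl and Pros1 rose, with log2 fold changes of 1.23 and 1.00. Dock1 also rose, as did Timd4, the receptor for phosphatidylserine, at 0 to 0.856 CPM in WT and 37.4 and 11.9 CPM in ABCG1KO. Mertk, the main receptor of the Axl family in many macrophages, stood at 102 to 225 CPM against 154 and 165 CPM, inside the WT range. The 5 rises became 1, 2, 2, 2 and 2, and Thbs1 and Mfge8 held in every fit with a library left out.

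Among 21 integrin genes, 2 rose (Itga4 and Itga6, the latter with 5.31% shared sequence) and 3 fell (Itgax, Itgad and Itgb3). In all, 23.8% of these genes were called, against 15.9% of all tested genes. Itgad, the alpha D chain, went from 10.4, 78.2 and 99.5 CPM to 0.188 and 0 CPM, and shares 8.74% of its sequence. In the list of matrix and proteases, 6 of 23 rose and 1 fell, 30.4% called. Fn1, fibronectin, rose from 861, 1548 and 921 CPM to 7071 and 3524 CPM (log2 fold change 2.26, SE 0.376, edgeR adjusted p = 0.00718). Mmp12, macrophage elastase, fell from 9038, 11310 and 6843 CPM to 699 and 1891 CPM (log2 fold change -2.81, SE 0.514, edgeR adjusted p = 0.0106), a call lost without ABCG1KO 1. Ecm1, Mmp14, Timp1 and Thbs1 were among the other rises, and of the 6, Fn1 and Thbs1 held in every fit with a library left out. The 6 rises became 2, 2, 3, 4 and 3.

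Genes of resident peritoneal macrophages and of monocytes were higher where they changed, although the labels do not name a tissue. Of 23 resident peritoneal genes, 7 rose (30.4%), none fell and 15 lay above every WT library in both knockout libraries, with a median log2 fold change of 1.80. Over all tested genes, 7.16% were called higher and 23.9% lay above every WT library in both. Beside Alox15, Prg4, Saa3, Fn1 and Timd4, Adgre1 (F4/80) rose from 512, 767 and 540.4 CPM to 1347 and 1451 CPM and Serpinb2 from 0.938 to 7.93 CPM in WT to 137 and 66.3 CPM. Gata6, the factor that defines the peritoneal state, stood at 16.1, 17.01 and 7.04 CPM against 28.7 and 32.6 CPM, above WT and not called (edgeR adjusted p = 0.355). Of 15 monocyte genes, 6 rose and none fell (Ccr2, Ly6c2, Cx3cr1, Nr4a1, Treml4 and Adgre4), with a median of 3.00, and Ly6c2 shares 14.5% of its sequence. Summed levels of the monocyte list were 36.5 to 112 CPM in WT and 826 and 424 CPM in ABCG1KO. More cells of a type and more RNA per cell cannot be told apart in bulk samples. The 7 rises became 5, 6, 6, 3 and 6 and the 6 rises 2, 4, 2, 2 and 5 with each library left out.

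Factors and receptors of the macrophage lineage were present in all libraries, and 6 of 22 rose and none fell. Csf1r, the receptor for the growth factor of macrophages, rose from 910, 1188 and 1652 CPM to 3051 and 2655 CPM, and Cebpa, a myeloid transcription factor, from 262, 228 and 372 CPM to 1360 and 692 CPM. Cebpb, Csf3r, Cd14 and Adgre1 were the other rises. Spi1 (PU.1), Irf8 and Lyz2 were not called, with log2 fold changes from -0.21 to 0.37. The 6 rises became 5, 4, 5, 1 and 6, with 1 fall called without WT 1 and 1 without WT 3, and that of Cebpa held in every fit with a library left out. Of 17 genes of alternative activation, 3 rose (Retnla, Ccl24 and Ear2) and none fell, 17.6% called against 15.9% of all tested genes, and Ear2 shares 41.5% of its sequence. With at least 10 counts required in every library, 0 of 10 members were called. Arg1 stood at 65.6, 570.3 and 2.07 CPM in WT and at 498 and 145 CPM in ABCG1KO, inside the wide WT range.

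Interferon-stimulated genes were called about as often as all tested genes, against a WT group in which WT 2 stood apart. Of 25, 4 fell (Oasl1, Oasl2, Rsad2 and Ddx58) and none rose, 16% called against 15.9% of all tested genes, with a median log2 fold change of -1.19. Oasl1 fell from 12.3, 17.4 and 7.17 CPM to 2.45 and 2.01 CPM (log2 fold change -2.47, SE 0.424, edgeR adjusted p = 0.00813), the 1 call of the 4 that held in every fit with a library left out. Summed levels of the list were 469 to 1520 CPM in WT and 425 and 316 CPM in ABCG1KO. Without WT 2 the count of falls was 2 and the median -0.38. WT 2 was also the highest WT library for a gene of MHC class II: H2-Ab1 stood at 106, 516 and 101 CPM and at 1172 and 1174 CPM in ABCG1KO, above every WT library and not called (log2 fold change 2.28, edgeR adjusted p = 0.106). Of the 12 genes of that list, the protease Ctss fell and none rose, 8.33% called, while without WT 2 3 members were called higher.

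Genes of the antioxidant response controlled by NRF2 moved both ways. Of 20, 6 rose and 2 fell, and both falls, Prdx1 and Ftl1, share 8.81% and 48.2% of their sequence with other loci. Slc7a11, the cystine importer, rose from 9.73, 15.1 and 15.8 CPM to 70.9 and 63.4 CPM (log2 fold change 2.31, SE 0.274, edgeR adjusted p = 0.00146). Txnrd1, thioredoxin reductase, rose from 278, 235 and 316 CPM to 664 and 756 CPM (log2 fold change 1.36, SE 0.204, edgeR adjusted p = 0.00454). Both knockout libraries were close to each other in these genes. Gclc and Gclm, which make glutathione, Gsr, which reduces it, and Hmox1, which opens haem, rose by less, with log2 fold changes from 0.55 to 1.20. Nfe2l2, which encodes NRF2, stood at 482 to 558 CPM against 258 and 379 CPM and was not called. Slc7a11 and Txnrd1 held in every fit with a library left out, and the 6 rises became 3, 3, 4, 2 and 3 and the 2 falls 2, 2, 2, 2 and 3.

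Iron genes moved both ways, with 3 of 17 higher (Hmox1, Ireb2 and Cd163) and 3 lower, 35.3% called against 15.9% of all tested genes. Steap3, a ferric reductase, fell from 204, 173 and 191 CPM to 61.2 and 76.8 CPM, and the other falls, Ftl1 and Ncoa4, share 48.2% and 17.9% of their sequence. Ftl1 and Ncoa4 held in every fit with a library left out. Slc40a1, the iron exporter ferroportin, stood at 40.01 to 94.5 CPM against 6.21 and 24.1 CPM, below WT and not called (edgeR adjusted p = 0.0788).

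Glycolysis, respiration and chaperones contain many genes with near copies, which limits these counts. Of 22 glycolytic genes 8 fell and 1 rose, and 8 of the 22 share at least 5% of their sequence with other loci. The steepest falls, Eno1 (-6.28), Pgk1 (-3.13) and Pgam1 (-2.77), are among them. Of the genes with little shared sequence, Hk3, a hexokinase of myeloid cells, fell from 806, 923 and 661 CPM to 224 and 327 CPM (log2 fold change -1.53, SE 0.220, edgeR adjusted p = 0.00384), Eno2 and Aldoc fell, and Hif1a, the hypoxia factor, rose from 114, 154 and 112 CPM to 381 and 272.5 CPM. Of 32 subunits of oxidative phosphorylation 3 fell and none rose, 9.38% called against 15.9% of all tested genes. Of the 3, Ndufs3 and Cox5b share over 10% of their sequence. Ndufa1 shares none and fell from 34.2 to 51.3 CPM in WT to 13.2 and 6.86 CPM. Of 18 chaperones 6 fell and 1 rose, and 4 of the falls (Hspa8, Hsp90aa1, Dnaja1 and Hspe1) share at least 11.6%. Hk3, Eno2, Hif1a, Eno1, Pgk1, Pgam1, the 3 respiratory subunits and these 4 chaperones held in every fit with a library left out.

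In the unfolded protein and integrated stress responses, 9.09% of 22 genes were called, against 15.9% of all tested genes. Herpud1, of protein degradation at the endoplasmic reticulum, rose and Atf3 fell. Atf3, a stress-induced repressor, stood at 622, 612 and 613 CPM in WT and at 302 and 364 CPM in ABCG1KO. Cell cycle genes split by library, with medians of -0.41 in ABCG1KO 1 and 1.05 in ABCG1KO 2. Of these, 3 of 29 (10.3%) were called, also a smaller share than the 15.9% of all tested genes. Mki67, a marker of dividing cells, stood at 26.5, 27.7 and 8.93 CPM in WT and at 32.9 and 59.3 CPM in ABCG1KO.

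**Figure D5:**
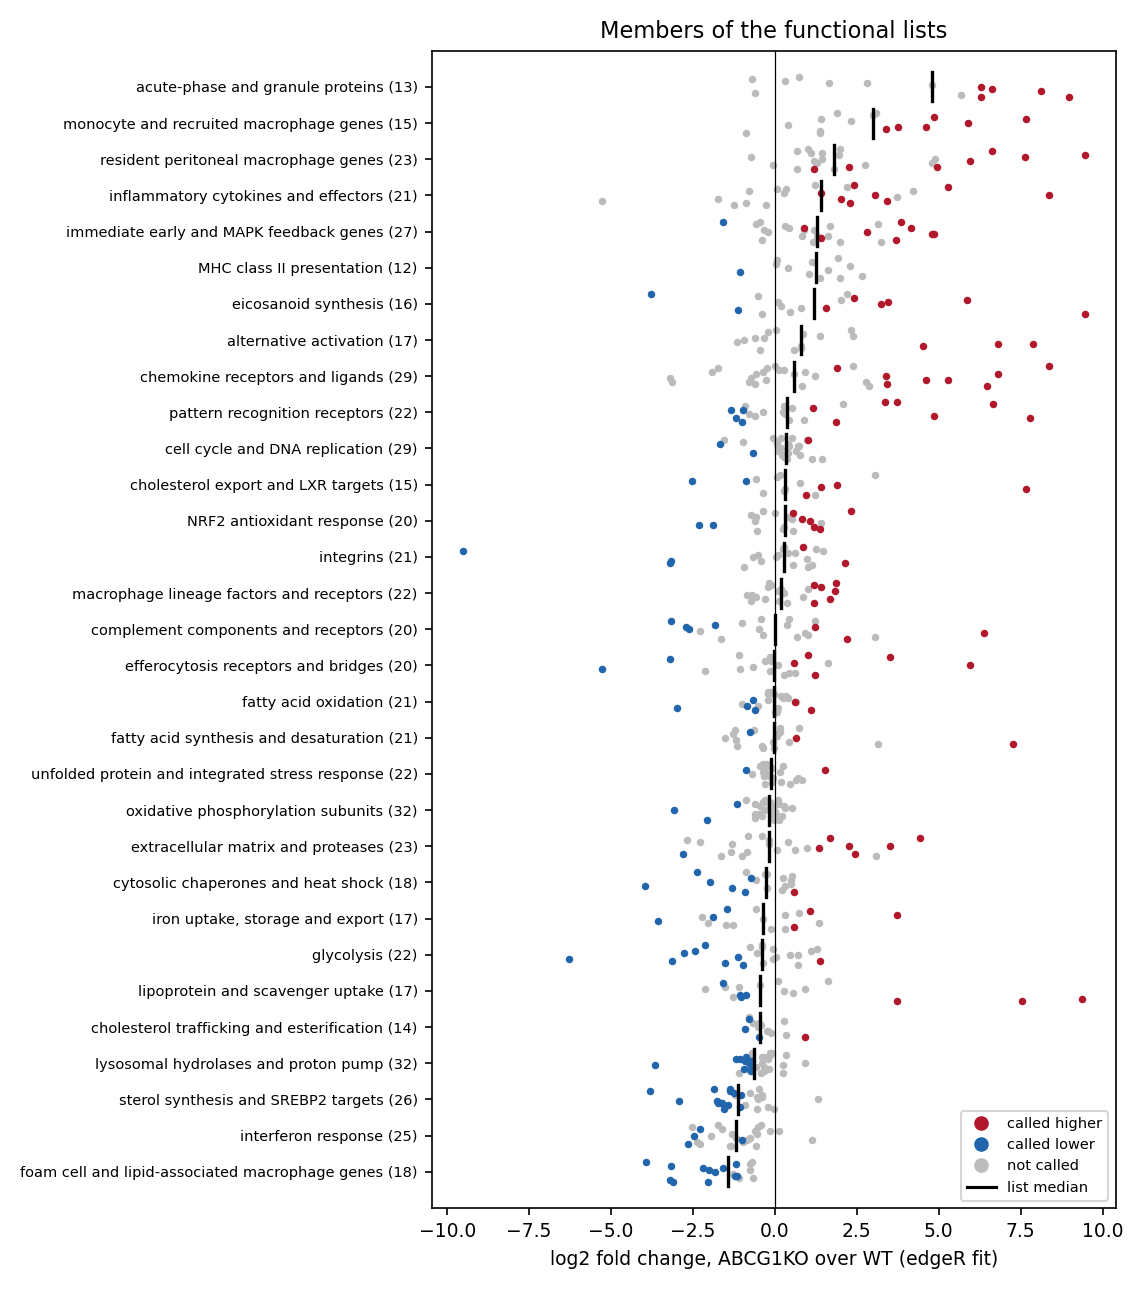
Log2 fold change of ABCG1KO over WT for each tested member of 31 functional lists, with the number of tested members in brackets and the list median as a black bar. Foam cell (median -1.43), interferon response (-1.19) and sterol synthesis genes (-1.13) stand at the bottom with no red point (the interferon median was -0.38 without WT 2), and acute-phase genes (4.80) and monocyte genes (3.00) at the top with no blue point (4.80 became 2.69, below the monocyte median of 2.74, without ABCG1KO 1).

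Markers of other cell types were summed in each library. Called were 11.1% of T and NK cell markers, 10% of B cell markers and 10% of mast cell, basophil and eosinophil markers. For dendritic cells it was 9.09%, for fibroblasts and mesothelium 6.67%, and for endothelium, platelets and red cells 37.5%. Of all tested genes, 15.9% were called. Fibroblast and mesothelial markers separated the knockout libraries, with summed levels of 169 CPM in ABCG1KO 1 and 1220 CPM in ABCG1KO 2 against 806 to 928 CPM in WT. Col1a1 stood at 206, 199 and 453 CPM in WT and at 50.3 and 549.5 CPM in ABCG1KO. Of 15 such markers Lum was called, lower, at 1.05 to 2.43 CPM in WT. T and NK cell markers summed to 647 to 750 CPM in WT and to 70.5 and 184 CPM in ABCG1KO, nearly all of it Il7r, which fell from 644, 648 and 746 CPM to 66.3 and 178 CPM. B cell markers summed to 120 to 150 CPM and to 51.9 and 54.1 CPM, and 1 of 10, Cd22, was called lower. Mast cell, basophil and eosinophil markers summed to 20.9 to 32.7 CPM in WT and to 55.9 and 20.5 CPM in ABCG1KO, with Kit called higher at 2.92 and 1.70 CPM. Dendritic cell markers summed to 2320 to 2460 CPM in WT and to 2080 and 2760 CPM in ABCG1KO, and of 11, Siglech was called higher, from no count in WT to 5.68 and 4.76 CPM. Markers of endothelium and platelets summed to 23.6 to 52.5 CPM against 172 and 110 CPM, with Pf4 and Ppbp of platelets called higher, and the endothelial receptor Kdr fell from 12.99, 14.7 and 18.3 CPM to 0.909 and 0.566 CPM. The calls of Il7r, Cd22, Kit, Siglech and Kdr held in every fit with a library left out. The part of other cell types in the results above was not tested.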

How the data were processed

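Counts per gene symbol were deposited for each library by the authors as htseq-count output, and the submitters' processing notes name HTSeq 0.11.2, STAR 2.7.9a, TopHat, DESeq2 1.30.1 and limma with the mm10 build, without the role or order of each. The annotation and strand setting are not given in the sources used here, so overlapping and antisense genes cannot be told apart. Each file held 24421 genes, of which 6588 had no count in any library. Lines of reads not assigned to a gene were left out of library sizes.

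Genes were filtered with filterByExpr, scaled by TMM and tested with edgeR 4.0.16 (R 4.3.3), using the quasi-likelihood test over all 8 libraries with genotype as the term, with Benjamini-Hochberg adjustment across the 13821 tested genes and a threshold of 0.05. Shared sequence is the percent of a gene's windows of 50 bases found in transcripts of another locus (GENCODE M21, GRCm38, the same assembly as mm10), with a value for 24041 symbols. It does not show how reads were assigned. A count of 3 per library served as the floor for genes with no count and covers counting error only.

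Genes named as the largest rises and falls were the 15 in each direction with the largest log2 fold change among eligible called genes. Eligible genes had under 5% shared sequence and a mean of at least 10 CPM in 1 of the groups, without ribosomal protein genes and Gapdh. Both of their ABCG1KO libraries also had to lie outside the range of the WT libraries. The genes and lists were chosen with earlier results of these data known. Alternatives were other scalings, filters, fits and libraries left out, with DESeq2 1.42.0 as another test. Promoter windows came from RefSeq. Some members of the lists are counted but not reported here by name.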

Additional observations from a re-analysis of the deposited data

Results flagged for a closer look

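Reads that were not counted in any gene were more frequent in the ABCG1KO libraries than in the control libraries. Reads outside annotated genes averaged 12.0% in ABCG1KO (13.8% and 10.2%), while the WT libraries held 4.27% to 5.88%. Reads aligned to more than 1 place averaged 6.84% in ABCG1KO (6.93% and 6.74%), while the WT libraries held 2.83% to 3.00%. Both values lie outside the measured gene counts, and their part in the differences between the groups was not tested.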

How the results depend on the processing

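No called gene among those named or listed was reversed by an alternative (genes that were not called were not followed), and the log2 fold change of Abcg1 stayed between -2.68 and -2.40 with any 1 library left out. With 1 library left out, including the LysM-DKO libraries, 827 to 2068 genes were called, 271 to 945 higher and 556 to 1123 lower, and the lowest counts were without ABCG1KO 1. The number of genes higher than every WT library in both ABCG1KO libraries was 3294 to 5175, and that of genes lower than every WT library in both ABCG1KO libraries 3296 to 5290, where leaving out a library leaves fewer values to satisfy. Restricting to genes with under 1% shared sequence (10853 tested) left 1233 calls, 598 higher and 635 lower. Raw library size gave 2055 higher, 5141 above and 2131 below every WT library. The replicate block gave 1448 calls, 564 of them higher. Same-numbered ABCG1KO and WT libraries correlated at -0.0514 and -0.0264 in their deviations from the group mean. With 2 ABCG1KO libraries these deviations mirror each other, so the values cannot show whether the numbers pair the libraries. DESeq2 called 3239 genes. The fit of WT and ABCG1KO alone tested 13420 genes and called 1588. The median of the alternative activation list was -0.0706 with at least 10 counts in every library. That of complement was -0.001 without ribosomal protein genes and Gapdh, -0.0576 without WT 1, -0.1181 without WT 3 and -0.0016 without ABCG1KO 1, within a range of -0.1181 to 0.4352 over the libraries left out. With raw library size, the medians were 0.11 for the unfolded protein response, 0.0653 for oxidative phosphorylation and 0.20 for neutrophil markers. The neutrophil median was 0.49 with at least 10 counts in every library, 0.22 without WT 2 and 0.0084 without ABCG1KO 1, within a range of -0.1208 to 0.2175 over the libraries left out. The cause of these changes was not tested. Robust estimates of spread, chosen after seeing the data, called 2216 genes.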

Other observations

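Within 1 Mb of Abcg1 on chromosome 17, 14 other genes were tested, of which 2 were called higher and 3 lower. Of all tested genes, 15.9% were called. Wdr4 (log2 fold change 1.12) and Pknox1 (0.63) were higher, and Ndufv3 (-0.68), Glo1 (-1.15) and U2af1 (-2.67) were lower, the last 2 with 5.63% and 21.7% of their sequence shared with other loci. On the X chromosome, 73 of 454 tested genes were called (16.1%), 16 higher and 57 lower.

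Ifi202b, an interferon-inducible gene, was the 1 called gene whose groups overlapped. WT 1, 2 and 3 held 0.0293, 179 and 105 CPM of it and ABCG1KO 1 and 2 held 0.0314 and 0.0236 CPM, so that WT 1 stood with the knockout libraries. The log2 fold change of Ifi202b was -11.6, and this overlap kept it out of the largest falls named above.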
